A study of Mus musculus with 12 samples.

Results

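The data described here are the line-dependent part of the response to *Dusp4* silencing, that is, how far the response of each measured gene to *Dusp4* siRNA differed between AKT/NRAS and AKT Cre/NRAS cells. Both are mouse liver cancer lines. The parental one, AKT/NRAS, comes from a tumour induced by delivering 2 oncogenes to the liver through the tail vein, activated NRAS and a membrane-targeted (myristoylated) AKT flanked by loxP sites. AKT Cre/NRAS was made from the parental line with Cre recombinase and had lost the AKT construct, so that both lines carried activated NRAS and only the parental line carried activated AKT. Each line received either a siRNA pool against *Dusp4* or a negative control pool (SCR), and each of the 4 groups (AKT/NRAS siRNA, AKT/NRAS SCR, AKT Cre/NRAS siRNA, AKT Cre/NRAS SCR) held 3 biological replicates, 12 samples in all. Every group comes from 1 tumour-derived line, so the comparison of the lines is a comparison of 2 cultures and not of independent tumours. Of the 770 gene probes on the NanoString® Mouse PanCancer Pathways panel, 551 were above the deposited lower limit of 20 in at least 1 sample and were taken as members. The other 219 were at that limit throughout.

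DUSP4 is a phosphatase of the cell nucleus that removes the activating phosphates from ERK and related MAP kinases. Its gene is itself switched on by ERK, and together with the other dual-specificity phosphatases and the Sprouty proteins it forms a negative feedback loop on RAS signalling. AKT acts on a parallel branch below the growth factor receptors, through mTOR, GSK3 and the FOXO factors, and the RAS and AKT branches inhibit and reinforce each other at several points. The comparison asks whether the transcript response to *Dusp4* siRNA differs between the line with the activated AKT construct and the line without it.

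The response in a line is the log2 ratio of siRNA to SCR. The interaction is the response in AKT Cre/NRAS minus the response in AKT/NRAS, so that a positive value means that a gene stood higher after siRNA, relative to its own control, in AKT Cre/NRAS. Normalised counts are the deposited values scaled to 15 reference genes of the panel, with a common lower limit of 27.1 below which no level can be read. Of the 551 members, 525 exceeded this common limit in at least 1 sample and were tested, 446 exceeded it in all 12 samples, and 26 could not be tested. Adjusted p values are those of limma over the 525 genes (Benjamini-Hochberg), and values under 0.05 were taken as passing. With 3 samples a group, they measure the spread between the cultures of these 2 lines.

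The labels of the lines were borne out by *Akt1*, which encodes the kinase whose activated form was removed by Cre. Its normalised count was 20228, 20006 and 19259 in AKT/NRAS SCR and 18257, 18566 and 18169.9 in AKT/NRAS siRNA, against 395, 432 and 337 in AKT Cre/NRAS SCR and 547, 587 and 531 in AKT Cre/NRAS siRNA. No sample of one line came near those of the other.

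*Dusp4* itself responded differently in the 2 lines. In AKT/NRAS its normalised count was 1273, 1226 and 1186 after SCR and 350.2, 389 and 371 after siRNA, and in AKT Cre/NRAS it was 6343, 5843 and 4483 after SCR and 4126, 4174 and 3769 after siRNA. The siRNA samples lay below the SCR samples without overlap in both lines, but all AKT Cre/NRAS siRNA samples still held more *Dusp4* transcript than any AKT/NRAS SCR sample. Silencing left 30.1% of the control mean in AKT/NRAS and 72.4% in AKT Cre/NRAS. The lines therefore differed in the depth of silencing as well as in AKT. In every interaction given here these 2 differences cannot be told apart. The interaction of *Dusp4* was 1.28 (standard error 0.15, limma adjusted p = 0.000728), the largest positive value among the genes tested, and it passed without any 1 of the 12 samples. The order of the lines depended on the scale. In counts the mean loss was 1533 in AKT Cre/NRAS and 858 in AKT/NRAS, so the line with the smaller fold had the larger loss of normalised counts. With the values as deposited the interaction was 0.85 and did not pass (adjusted p = 0.139).

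With the reference gene scaling, more genes had a higher than a lower response in AKT Cre/NRAS relative to AKT/NRAS. This balance depended on the scaling, with a median interaction of -0.11 in the deposited values, -0.02 after median centring and 0.01 after quantile normalisation. Of the 525 genes tested, 238 passed the interaction test (45.3%), 213 with a positive interaction (40.6%) and 25 with a negative one (4.76%). The counts of each gene list given below stand against the shares of 40.6% and 4.76%. A short list with none passing downwards is therefore near the background. With the Benjamini-Yekutieli adjustment, which the study used for differential expression, 101 genes passed, all of them with a positive interaction. The median interaction over all genes tested was 0.25. In AKT Cre/NRAS alone, 289 genes passed (55.0%), 246 upwards (46.9%) and 43 downwards (8.19%), with a median response of 0.21. In AKT/NRAS, 19 passed (3.62%), 4 upwards (0.762%) and 15 downwards (2.86%), with a median of -0.02. Among the 213 genes with a positive interaction, 186 had risen in AKT Cre/NRAS without passing in AKT/NRAS, 4 had risen in the one and fallen in the other, 7 had only fallen in AKT/NRAS, 2 had fallen in both, and 14 passed in neither line alone. Among the 25 with a negative interaction, 18 had fallen in AKT Cre/NRAS without passing in AKT/NRAS, *Skp2* had risen in AKT/NRAS alone, and 6 passed in neither. Over the 446 genes above the limit in every sample, the 2 responses had a Pearson correlation of -0.14 and a Spearman correlation of -0.22. These describe genes of the same panel, which are not independent of each other.

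Genes outside the naming rule given under the methods, among them list members that did not pass, were chosen after their values were seen. The 4 genes that rose in AKT Cre/NRAS and fell in AKT/NRAS were *Dusp10*, *Wnt7b*, *Runx1* and *Creb5*, and the 2 that fell in both but less in AKT Cre/NRAS were *Dusp4* and *Ccna2*. The interaction of *Ccna2*, the gene of cyclin A2, was 0.28 and was lost without AKT/NRAS siRNA replicate 2 or 3, AKT/NRAS SCR replicate 2 or 3 or AKT Cre/NRAS siRNA replicate 1 or 2 (limma adjusted p up to 0.0767). A different measure, which needs no pooled spread, was taken on the same scaled values and not repeated under the other scalings. It gave 68 genes (13.0%) whose siRNA samples lay wholly above SCR in AKT Cre/NRAS and wholly below SCR in AKT/NRAS. The opposite order, below SCR in AKT Cre/NRAS and above in AKT/NRAS, was found for 7 genes (1.33%), *Cxcl1*, *Rfc3*, *Rfc4*, *Rpa3*, *Spp1*, *Ube2t* and the reference gene *Oaz1*. The small number of calls in AKT/NRAS depended on the spread that was used. The median SD of a gene over 3 replicates was 0.17 log2 units in AKT Cre/NRAS SCR and 0.07 to 0.08 in the other groups, and when each group was given its own weight 91 genes passed in AKT/NRAS, 229 in AKT Cre/NRAS and 236 in the interaction.

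**Figure D1:**
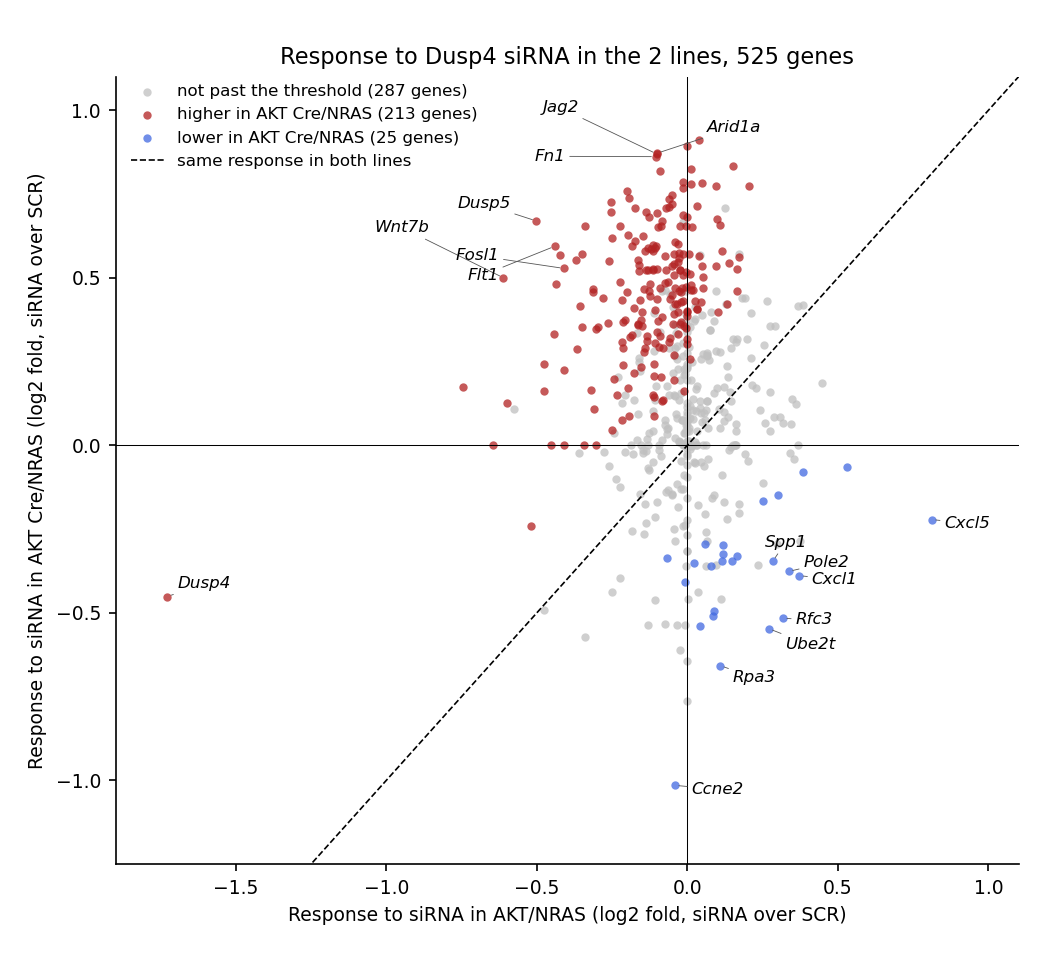
Response to *Dusp4* siRNA (log2, siRNA over SCR) in AKT/NRAS on the horizontal axis and AKT Cre/NRAS on the vertical axis, with 1 point for each of the 525 genes tested. The 213 genes with a positive interaction lie above the dashed line of equal response, mostly near 0 in AKT/NRAS, and the 25 with a negative interaction lie below it.

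The AKT Cre/NRAS SCR samples stood apart from the other 9, and this touches every interaction given here. The log2 ratio of the ribosomal protein gene *Rpl19* to the RNA polymerase II gene *Polr2a* was 3.81 to 3.92 in the 6 AKT/NRAS samples and 4.72 to 5.03 in AKT Cre/NRAS siRNA, but 5.48 to 6.88 in AKT Cre/NRAS SCR. The interaction also ran with the genomic span of a gene from its first to its last exon. In the quartile of genes with the shortest span (median 5.50 kb) the median interaction was 0.03, with 34 of 131 genes passing upwards and 14 downwards. In the quartile with the longest span (median 137 kb) it was 0.41, with 75 upwards and 2 downwards. Across the 524 genes with a span, Spearman's rho with the interaction was 0.32, and it was 0.32 with the response in AKT Cre/NRAS and -0.13 with that in AKT/NRAS. The part of this in the interaction was not tested, but the fit was repeated with each sample centred within quartiles of genomic span, an alternative chosen after the data had been seen. It left 179 genes past the threshold, 108 upwards and 71 downwards, of which 133 had passed in the same direction before and 1, *Stag2*, a cohesin gene, had passed in the opposite one (0.20 before, -0.24 after).

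**Figure D2:**
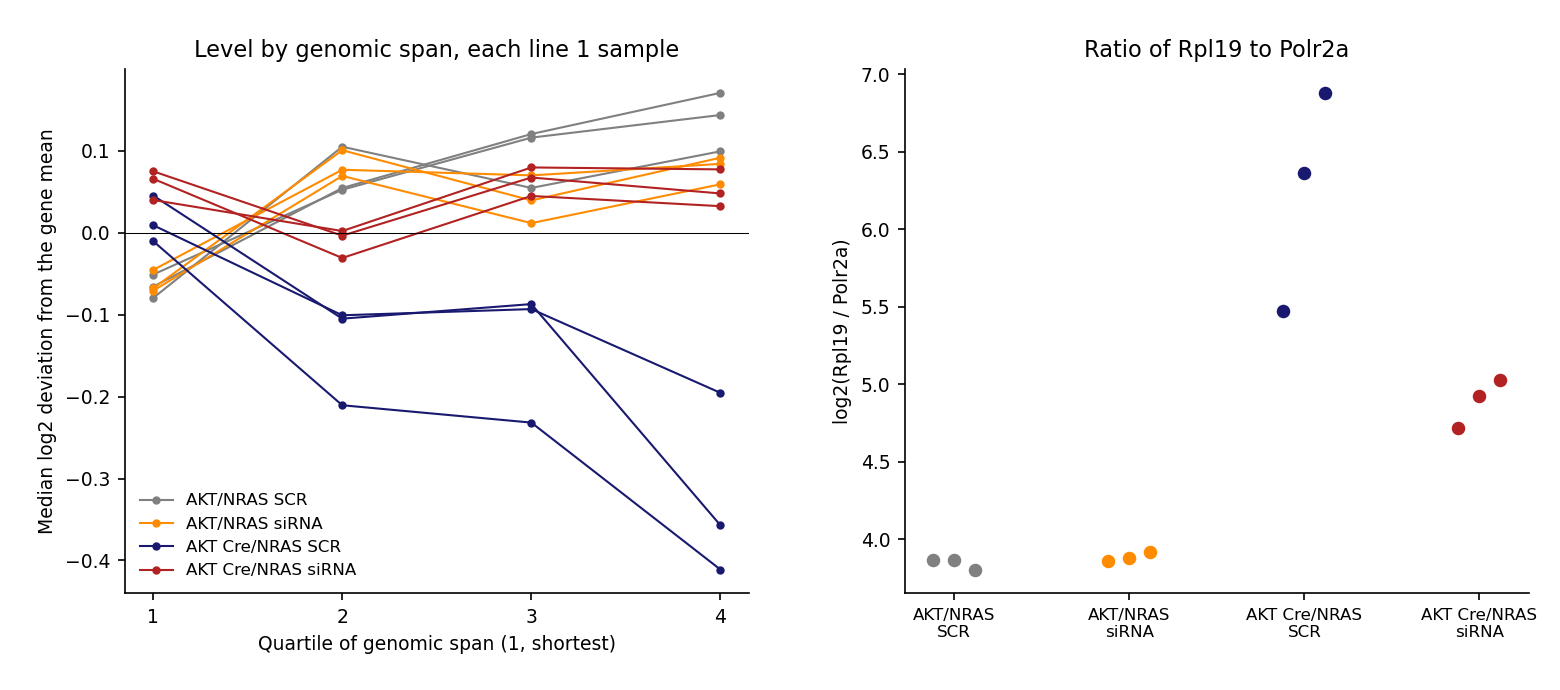
Left, median deviation from the gene mean (log2) in each sample against the quartile of genomic span, 1 line per sample. Right, log2 ratio of *Rpl19* to *Polr2a* in the 12 samples. The 3 AKT Cre/NRAS SCR samples fall with span and have the highest ratios, 5.48 to 6.88.

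The direction of the calls depended on the scaling, as the deposited values carry no correction with reference genes. Among the 15 reference genes, *Sap130*, *Sdha* and *Abcf1* themselves passed upwards and *Oaz1* and *Nubp1* downwards. All are counted among the 238 calls. The scaling thus rests in part on genes whose own response differed between the lines. Positive interactions made up 89.5% of calls with 15 reference genes, 84.3% with all 20 and 99.7% with the 5 ranked first, but 42.0% after each sample was centred on its median (71 upwards, 98 downwards) and 52.1% after quantile normalisation. Median centring removed the common shift of 0.25, so its 71 positive genes are those whose interaction exceeded that of the typical gene, and all 71 had passed before. As deposited, 10 genes passed, 2 upwards and 8 downwards, and the median interaction was -0.11. For most genes described in detail, the number of the 7 scalings in which the interaction passed in the same direction is therefore given. The 7 include the scaling used here and those with all 20, the 10 and the 5 reference genes ranked first. These share reference genes and a positive median interaction (0.25, 0.18, 0.46 and 0.70), so the 7 are not independent. Passing in 4 of 7 can mean passing with reference gene scalings alone. *Ccne2* and *Col5a1* passed in all 7, and 68 genes with a positive and 4 with a negative interaction passed in at least 6. With the scaling used here, *Col5a1* lay at the common lower limit in every AKT/NRAS sample, so no response could be read in that line. Its interaction is therefore the response in AKT Cre/NRAS alone and not a difference between measured responses.

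**Figure D3:**
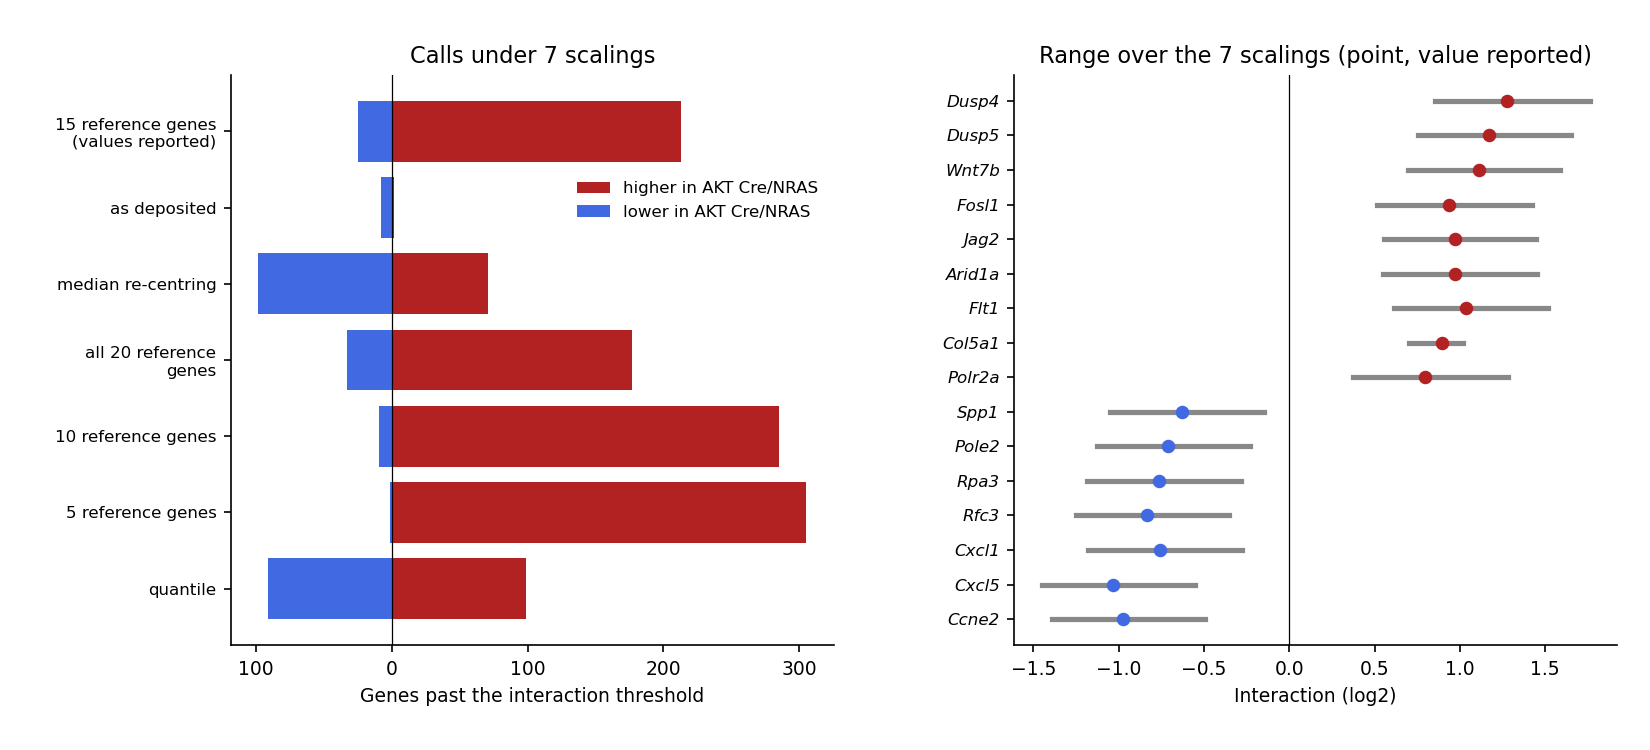
Left, number of genes past the interaction threshold under 7 scalings, those higher in AKT Cre/NRAS to the right and those lower to the left. Right, interaction (log2) of 16 chosen genes under the scaling used here (point) with the lowest and highest value over the 7 scalings (bar). No bar of these 16 crosses 0, but other genes changed sign. Among the 213 positive calls, 15 had an interaction below 0 after median centring.

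Beside *Dusp4*, whose value measures how far the siRNA target itself was reduced in each line, the largest positive interaction was that of another dual-specificity phosphatase. Of 9 DUSP and Sprouty genes tested, 5 had a positive interaction (*Dusp4*, *Dusp5*, *Dusp6*, *Dusp10* and *Spry4*) and none had a negative one. Without *Dusp4* this was 4 of 8, near the 40.6% upwards and 4.76% downwards over all genes. The median of all 9 was 0.38 against 0.25 over all genes. After centring within quartiles of genomic span the counts were 5 and 1, and after median centring 3 and 2. *Dusp5*, which encodes a nuclear phosphatase specific to ERK, had the second largest value. Its normalised count in AKT/NRAS was 111, 85.8 and 104 after SCR and 80.3, 64.4 and 66.9 after siRNA, and in AKT Cre/NRAS 343, 304 and 283 after SCR and 548, 492 and 442 after siRNA. The siRNA samples were all below SCR in AKT/NRAS and all above SCR in AKT Cre/NRAS, and the interaction was 1.17 (standard error 0.18, adjusted p = 0.00158, 6 of 7 scalings). The response in AKT/NRAS alone, -0.50, did not pass (adjusted p = 0.052).

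The promoter of *Dusp5* is shown because it belongs to a gene with one of the largest interactions and carries adjacent copies of the CArG box, the sequence bound by serum response factor, through which ERK activates early genes. The sequence is from RefSeq (GRCm38.p6, chr19:53528895-53529194, plus strand) and runs from 250 bases before to 50 bases after the gene's start. Capitals mark 2 CArG boxes, the first starting 82 bases before the start of the gene.
Dusp5: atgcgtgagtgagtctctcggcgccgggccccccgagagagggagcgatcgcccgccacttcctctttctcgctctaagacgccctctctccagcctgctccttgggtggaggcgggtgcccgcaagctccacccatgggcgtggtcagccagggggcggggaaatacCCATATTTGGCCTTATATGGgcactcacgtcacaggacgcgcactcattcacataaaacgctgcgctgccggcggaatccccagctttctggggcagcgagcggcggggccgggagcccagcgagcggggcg
A search of both strands found a CArG box in 1.63% of all 32851 promoter windows of this length, in 1.56% of those of genes tested and in 3 of 208 windows of genes with a positive interaction (1.44%), which also included *Kdm5c* and *Rasa4*. A match describes letters in the window and no binding.

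*Dusp10*, which encodes a phosphatase that prefers JNK and p38, passed in both lines and in opposite directions. Its normalised count was 1832, 1767 and 1775 after SCR and 1404, 1368 and 1278 after siRNA in AKT/NRAS, and 893, 896 and 871 after SCR and 1091, 979.9 and 1039 after siRNA in AKT Cre/NRAS. It fell in AKT/NRAS (-0.41, adjusted p = 0.00104) and rose in AKT Cre/NRAS (0.22, adjusted p = 0.0048), with an interaction of 0.63 (standard error 0.07, 6 of 7 scalings). *Spry4*, an inhibitor of receptor-driven RAS activation, had an interaction of 0.56 (4 of 7 scalings). *Dusp6*, the cytoplasmic ERK phosphatase, had the smallest of the 5, 0.37 (adjusted p = 0.0121, 4 of 7 scalings), and turned to -0.05 in the deposited values. *Spry2* (0.22), *Dusp8* (0.38), *Spry1* (-0.23) and *Ptprr* (-0.26) did not pass.

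Of 9 genes of transcription factors that ERK switches on, 7 had a positive interaction (*Fosl1*, *Ets2*, *Klf4*, *Jun*, *Fos*, *Nr4a1* and *Myc*) and none a negative one. The shares over all genes were 40.6% and 4.76%. The list's median was 0.64, the highest of the 25 gene lists. The same count, 7 and 0, was found after centring within quartiles of genomic span, and 4 and 0 after median centring. *Fosl1* encodes FRA1, an AP-1 subunit that accumulates when ERK activity lasts. Its normalised count was 242, 240.0 and 239 in AKT/NRAS SCR and 189.6, 167 and 186 in AKT/NRAS siRNA, and 734, 638 and 549 in AKT Cre/NRAS SCR and 1019, 862 and 879 in AKT Cre/NRAS siRNA. No siRNA sample overlapped with SCR in either line, the order was opposite in the 2 lines, and the interaction was 0.94 (standard error 0.15, adjusted p = 0.00158, 6 of 7 scalings). *Klf4* (0.77), *Ets2* (0.81) and *Jun* (0.70), which encode a zinc finger factor, an ETS factor and an AP-1 subunit, also passed in 6 of 7. For *Klf4* the siRNA and SCR ranges were likewise opposite, with 7953, 7486 and 7432 against 5698, 6460.2 and 6274 in AKT/NRAS (SCR against siRNA) and 1031, 974 and 802 against 1292, 1273 and 1268 in AKT Cre/NRAS. *Etv4* (0.35) and *Mycn* (0.07) did not pass.

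**Figure D4:**
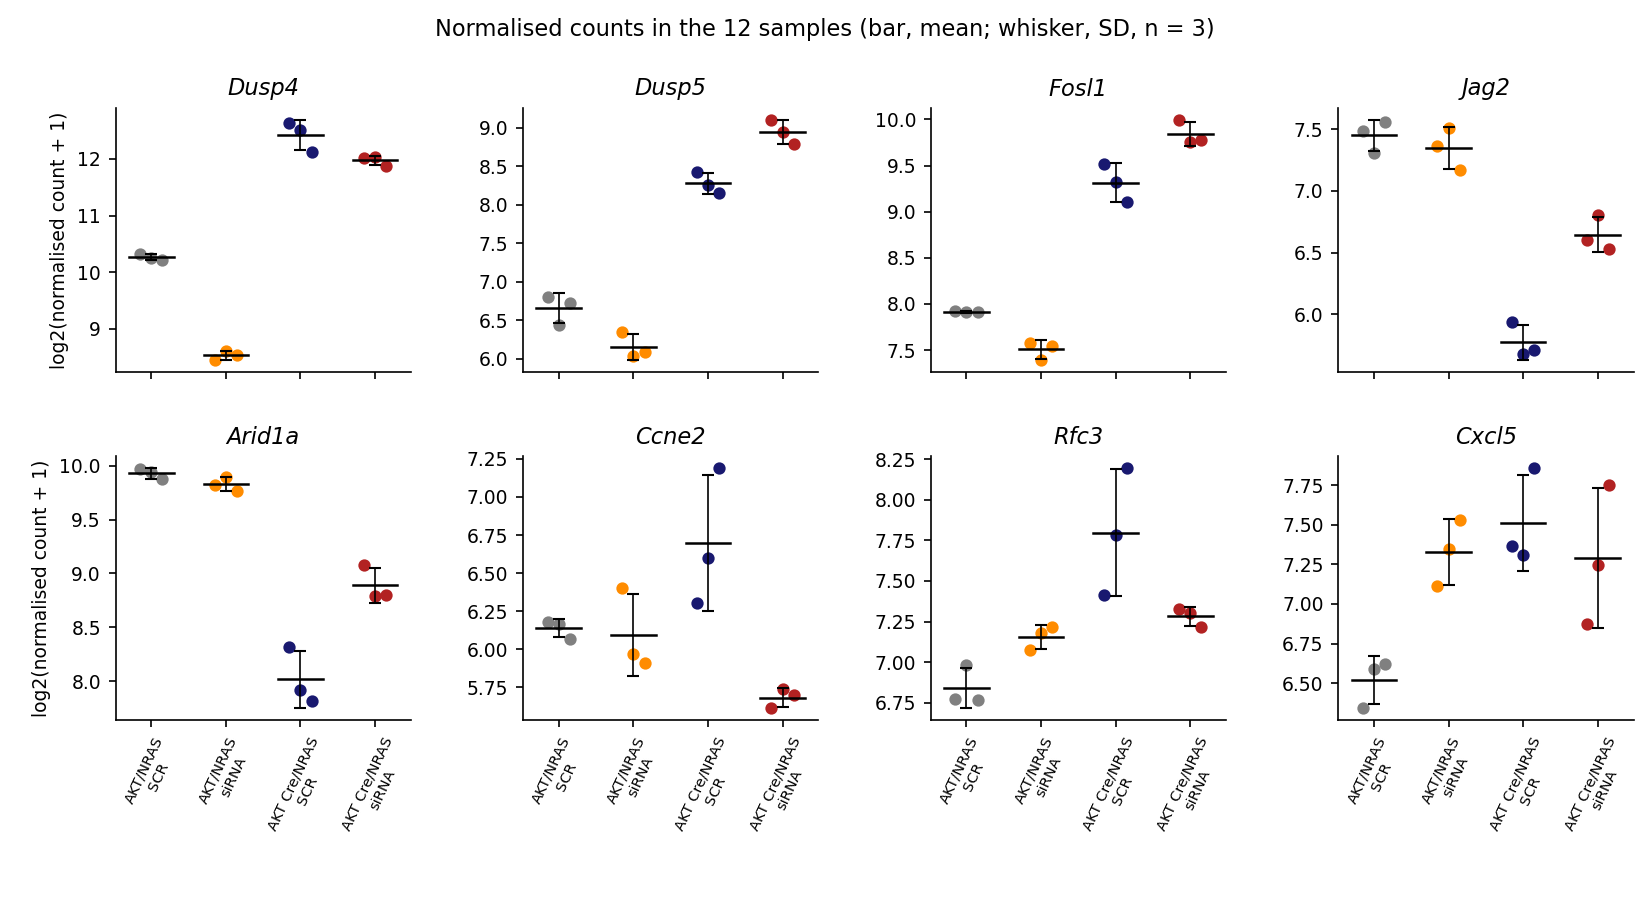
Normalised counts (log2 of count + 1) of 8 genes in the 12 samples, with the mean (bar) and SD (whisker) of each group, n = 3. *Dusp5* and *Fosl1* lie lower after siRNA in AKT/NRAS and higher in AKT Cre/NRAS, *Jag2* and *Arid1a* higher only in AKT Cre/NRAS, and *Ccne2* and *Rfc3* lower in AKT Cre/NRAS.

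Of 21 genes of the cascade from RAS to ERK, 14 passed upwards and none downwards, against 40.6% and 4.76% of all genes. The median was 0.45. The counts were 6 and 2 after centring within quartiles of span and 2 and 2 after median centring. The largest were *Nf1* (0.75), which encodes neurofibromin, a brake on RAS, and the adaptor gene *Shc2* (0.72), both in 6 of 7 scalings. The exchange factor gene *Sos2* (0.53) passed in 5 and the RAS effector gene *Rin1* (0.49) in 4. *Nras* (0.05), *Hras* (0.13) and *Map2k1* (0.24) did not pass.

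In the stress-activated kinase cascades, 6 of 13 genes passed upwards and *Mapk8* downwards (-0.37, 4 of 7 scalings), with a median of 0.29. Over all genes 40.6% passed upwards, and the list's counts were 1 and 2 after median centring and 4 and 4 after centring within quartiles of span. The call of *Mapk8* held in the fits without AKT/NRAS siRNA replicate 3 or AKT Cre/NRAS SCR replicate 1 alone (adjusted p up to 0.0998 in the others). *Map3k1*, which encodes a kinase above JNK and ERK, stood at 1647, 1592 and 1625 in AKT/NRAS SCR, 1242, 1364 and 1164 in AKT/NRAS siRNA, 1321, 1088 and 928 in AKT Cre/NRAS SCR and 1703, 1666 and 1484 in AKT Cre/NRAS siRNA. The siRNA samples lay wholly below SCR in the first line and wholly above in the second (interaction 0.92, adjusted p = 0.00201, 6 of 7 scalings). *Mapk9* (0.51), *Map3k5* (0.47), *Map2k4* (0.41) and *Rac1* (0.36) passed in 4 of 7, and *Map2k6* (-0.03) did not pass. The JNK genes *Mapk8* and *Mapk9* therefore had interactions of opposite sign.

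Protein kinase C and calcium signalling genes passed upwards in 14 of 21 cases and never downwards (median 0.41), against 40.6% and 4.76% of all genes. But the counts were 4 and 2 after median centring and 5 and 2 after centring within quartiles of span. *Prkca*, the gene of the kinase that phorbol esters activate, was at 2072, 1845 and 1744 in AKT/NRAS SCR and 1659, 1510.2 and 1568 in AKT/NRAS siRNA, and at 571, 437 and 381 in AKT Cre/NRAS SCR and 763, 794 and 671 in AKT Cre/NRAS siRNA. The ranges did not overlap within either line and were opposite in order, and the interaction was 0.95 (adjusted p = 0.00308, 6 of 7 scalings). *Gnaq*, which encodes the G protein subunit that activates phospholipase C, had an interaction of 0.78 (6 of 7 scalings) with almost no response in AKT/NRAS (-0.01).

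Of 11 genes of SWI/SNF and other remodellers, 9 passed upwards and none downwards (median 0.59). Of 23 genes for histone acetylation and methylation 16 passed upwards and none downwards (median 0.51). The shares over all genes were 40.6% and 4.76%. After median centring the counts were 5 and 0 and 8 and 2, and after centring within quartiles of span 5 and 0 and 7 and 0. *Arid1a*, which encodes the DNA-binding subunit of SWI/SNF, was at 999.7, 983 and 936 in AKT/NRAS SCR and 902, 951 and 870.1 in AKT/NRAS siRNA, with overlapping ranges. In AKT Cre/NRAS it was at 318, 241 and 224 after SCR and 539, 443 and 443 after siRNA, without overlap (interaction 0.97, adjusted p = 0.00212, 6 of 7 scalings). *Arid1b* (0.93), the ATPase gene *Smarca4* (0.78) and the acetyltransferase genes *Ep300* (0.83) and *Crebbp* (0.77) passed in 6 of 7 scalings, each with a response between -0.19 and -0.06 in AKT/NRAS. *Cic*, which encodes the repressor that ERK removes from its targets, had an interaction of 0.98 (6 of 7 scalings).

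DNA replication held more negative interactions than any other list. Of the 17 genes of this list, 7 passed downwards (*Rfc3*, *Rfc4*, *Rpa3*, *Pole2*, *Hist1h3b*, *Hist2h3b* and *Stmn1*) and none upwards, with a median of -0.36 against 0.25 over all genes. *Stmn1* encodes a microtubule regulator and not a replication protein, and the histone genes have near-identical coding sequences. Under the other centrings 13 passed downwards after median centring and 9 after centring within quartiles of span, and none upwards in either. Both centrings took out a positive common shift, so a list with a negative median was bound to stay negative. These counts are therefore no separate support. Over all genes, 98 passed downwards after median centring (18.5%) and 71 after centring within quartiles of span. As deposited, 4 passed downwards and none upwards. With the 10 and the 5 reference genes ranked first, 9 and 1 of all genes passed downwards. With the 5 this was *Ccne2*, so that no gene of the replication list passed downwards. *Ccne2*, the gene of cyclin E2, which drives entry into S phase and belongs to the list of G1 and S phase cyclins, was the only gene to pass downwards in all 7 scalings. It was at 71.5, 70.7 and 66.1 in AKT/NRAS SCR and 83.8, 61.6 and 59.2 in AKT/NRAS siRNA, with overlap, and at 78.2, 95.8 and 145 in AKT Cre/NRAS SCR and 48.0, 52.3 and 50.9 in AKT Cre/NRAS siRNA, without overlap. The interaction was -0.97 (standard error 0.27, adjusted p = 0.0155), it passed in all 7 scalings and without any 1 sample, and the fall in AKT Cre/NRAS alone was -1.02 (adjusted p = 0.00162).

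*Rfc3*, which encodes a subunit of the clamp loader that places PCNA on DNA, was at 108, 125 and 108 in AKT/NRAS SCR and 134, 144 and 148 in AKT/NRAS siRNA, and at 169.5, 219 and 292 in AKT Cre/NRAS SCR and 159.6, 157 and 148 in AKT Cre/NRAS siRNA. The siRNA samples lay wholly above SCR in AKT/NRAS and wholly below in AKT Cre/NRAS (interaction -0.83, adjusted p = 0.0121, 6 of 7 scalings), and the result held without any 1 sample. In *Ccne2* and *Rfc3* alike, the AKT Cre/NRAS SCR samples spread more than any other group, from 78.2 to 145 and from 170 to 292. Replicate 3 of that group, which had its highest *Rpl19* to *Polr2a* ratio, had its highest value of both genes. Without this replicate the interactions were -0.73 and -0.63 and still passed.

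*Rfc4* (-0.58), *Rpa3* (-0.77, 6 of 7 scalings), *Pole2* (-0.71, 4 of 7) and the histone genes *Hist2h3b* (-0.59) and *Hist1h3b* (-0.58), which encode a second clamp loader subunit, a subunit of the single-strand binding protein, a subunit of DNA polymerase epsilon and histone H3, also passed. These calls rested on the full set of samples. *Rpa3* and *Pole2* passed in 3 of the 12 fits that left out 1 sample, those without AKT Cre/NRAS SCR replicate 1, 2 or 3 for *Rpa3* and those without AKT/NRAS siRNA replicate 2, AKT Cre/NRAS siRNA replicate 3 or AKT Cre/NRAS SCR replicate 1 for *Pole2*, with adjusted p of up to 0.0878 and 0.0993 otherwise. *Rfc4* passed in 6, and was lost without AKT/NRAS siRNA replicate 3, AKT/NRAS SCR replicate 1, 2 or 3 or AKT Cre/NRAS siRNA replicate 1 or 2 (adjusted p up to 0.0652). Both histone genes passed in 8, and were lost without AKT/NRAS siRNA replicate 1, AKT/NRAS SCR replicate 1 or AKT Cre/NRAS siRNA replicate 2 or 3 (up to 0.0623 for *Hist1h3b* and 0.0611 for *Hist2h3b*), and since the coding sequences of histone H3 genes are near-identical, the levels of the single genes are uncertain. *Stmn1*, which encodes the microtubule regulator stathmin, passed with -0.36 and was lost without AKT/NRAS siRNA replicate 2 or 3, AKT/NRAS SCR replicate 1 or 3, AKT Cre/NRAS siRNA replicate 1 or 2 or AKT Cre/NRAS SCR replicate 2 (adjusted p up to 0.0813). *Pcna* (-0.42), *Mcm2* (-0.28) and *Mcm5* (0.06) did not pass.

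The promoters of *Rfc3* and *Pole2* are shown because both genes had a negative interaction and both windows hold the site of E2F, the factor that switches on S phase genes. Both sequences are from RefSeq (GRCm38.p6) and cover 250 bases before to 50 bases after the start, *Rfc3* at chr5:151651159-151651458 on the minus strand and *Pole2* at chr12:69228141-69228440 on the minus strand. Capitals mark matches to TTTGGCGC, TTTCCCGC, TTTCGCGC or TTTGCCGC on either strand.
Rfc3: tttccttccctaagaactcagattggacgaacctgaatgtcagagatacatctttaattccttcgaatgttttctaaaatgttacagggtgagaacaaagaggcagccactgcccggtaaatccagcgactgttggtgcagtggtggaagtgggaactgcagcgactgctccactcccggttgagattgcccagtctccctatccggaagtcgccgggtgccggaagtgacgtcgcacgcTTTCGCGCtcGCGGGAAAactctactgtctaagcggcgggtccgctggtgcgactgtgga
Pole2: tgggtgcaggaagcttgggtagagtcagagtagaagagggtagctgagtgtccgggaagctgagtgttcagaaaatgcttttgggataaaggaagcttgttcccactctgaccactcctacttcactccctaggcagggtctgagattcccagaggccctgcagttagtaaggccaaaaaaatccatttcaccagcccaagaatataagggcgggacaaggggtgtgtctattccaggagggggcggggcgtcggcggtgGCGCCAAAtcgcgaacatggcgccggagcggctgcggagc
Such a match was found in 2.26% of all promoter windows, in 36 of the 514 windows of genes tested (7.0%), in 4.33% of the 208 windows of genes with a positive interaction, and in 3 of the 19 windows of the 16 matched genes with a negative one (15.8%), the third belonging to *Polr2j*. The ETS site CCGGAAGT, whose family includes factors activated by ERK, was in 3.89% of all windows, 5.45% of those of genes tested, 5.77% of those with a positive interaction and 4 of 19 with a negative one (*Polr2j*, *Rfc3*, *Rfc4* and *Rpa3*, 21.1%), with 2 copies in *Rfc3*. The AP-1 site TGANTCA was in 7.81% of all windows, 6.81% of those of genes tested and in 4.33% and 5.26% of those with a positive and a negative interaction. With 19 windows these shares are counts of letters and were not tested.

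Of 38 DNA repair genes, 7 passed upwards and 3 downwards, with a median of -0.0046 against 0.25 over all genes. The balance turned with the centring, to 0 upwards and 12 downwards after median centring (median -0.26) and to 3 and 9 after centring within quartiles of span. *Rad50* (0.74) and *Mdc1* (0.68), which act early at double-strand breaks, passed upwards in 5 of 7 scalings. *Ube2t*, the gene of the ubiquitin-conjugating enzyme of the Fanconi pathway, passed downwards (-0.82, 6 of 7 scalings), with 88.9, 84.6 and 85.9 in AKT/NRAS SCR, 111, 101 and 102 in AKT/NRAS siRNA, 212, 235 and 392 in AKT Cre/NRAS SCR and 187, 192 and 173 in AKT Cre/NRAS siRNA. The order of siRNA and SCR was opposite in the 2 lines without overlap, but the call was lost without AKT/NRAS siRNA replicate 1 or AKT Cre/NRAS siRNA replicate 3 (adjusted p = 0.0505 at most).

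Of 15 cyclin and kinase genes of G1 and S phase, 4 passed upwards and *Ccne2* and *Mnat1* downwards (median 0.01). The counts were 1 and 5 after median centring and 2 and 3 after centring within quartiles of span. *Cdk6* (0.60, 6 of 7 scalings), *Ccnd1* (0.47, 5 of 7) and *Ccnd2* (0.39, 4 of 7), which encode the kinase and cyclins that start the cycle, passed upwards, and *Ccne1* (0.01), *Cdk2* (0.00) and *Cdk4* (-0.09) did not pass. *Ccnd2* rose in AKT Cre/NRAS (0.56), whereas its response of 0.17 in AKT/NRAS did not pass. Of 9 CDK inhibitor, p53 and RB genes, *Cdkn1a* (0.77, 5 of 7 scalings), the gene of p21, and *Rb1* (0.53) passed upwards and 7 did not pass, whereas 0 passed upwards and 5 downwards after median centring and 1 and 0 after centring within quartiles of span. Of 13 genes of G2 and mitosis, 6 passed upwards and none downwards (median 0.07), near the 40.6% and 4.76% of all genes. The counts were 1 and 4 after median centring and 1 and 2 after centring within quartiles of span. *Cdkn1a* was at 6003, 5885 and 5661 in AKT/NRAS SCR, 4466, 4748 and 4498 in AKT/NRAS siRNA, 4264, 3938 and 2749 in AKT Cre/NRAS SCR and 5018, 5034 and 4332 in AKT Cre/NRAS siRNA, opposite in order without overlap in either line. *Skp2*, which encodes the ubiquitin ligase subunit that marks CDK inhibitors for degradation, passed downwards (-0.46, 4 of 7 scalings).

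The largest negative interaction was that of a chemokine gene. *Cxcl5*, a neutrophil-attracting chemokine gene, was at 80.2, 95.1 and 97.5 in AKT/NRAS SCR and 137, 162 and 184 in AKT/NRAS siRNA, without overlap, and at 164, 158 and 231 in AKT Cre/NRAS SCR and 116, 151 and 214 in AKT Cre/NRAS siRNA, with overlap. The interaction was -1.03 (standard error 0.30, adjusted p = 0.0191, 5 of 7 scalings), although the response passed in neither line alone. Its relative *Cxcl1* had an interaction of -0.76 (5 of 7 scalings), which was lost without AKT/NRAS SCR replicate 3 or AKT Cre/NRAS siRNA replicate 2 (adjusted p up to 0.0512). *Spp1*, the gene of osteopontin and the most abundant of these transcripts, was at 15345, 15529 and 14872 in AKT/NRAS SCR, 16928, 19518 and 19348 in AKT/NRAS siRNA, 119863, 142698 and 161485 in AKT Cre/NRAS SCR and 101245, 115168 and 115311 in AKT Cre/NRAS siRNA. Its order was opposite in the 2 lines without overlap (interaction -0.63, adjusted p = 0.00899, 5 of 7 scalings). Of the 30 cytokine and NF-κB genes, 6 passed upwards, among them *Rela* (0.64, 6 of 7 scalings), the gene of the p65 subunit of NF-κB, and 2 downwards, *Cxcl5* and *Cxcl1*, with a median of 0.12. The balance turned to 1 upwards and 7 downwards after median centring and to 1 and 5 after centring within quartiles of span.

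Among growth factors and receptor kinases, 15 of 33 passed upwards and 2 downwards (median 0.29), near the 40.6% and 4.76% of all genes. The counts were 5 and 3 after median centring and 9 and 5 after centring within quartiles of span. The call of *Pdgfd* (-0.42) was lost without AKT/NRAS siRNA replicate 3 (adjusted p = 0.051). *Figf*, the older name of the gene for VEGF-D, fell in AKT/NRAS and did not pass in AKT Cre/NRAS. It was at 411, 336 and 307 after SCR and 200.1, 204 and 219.7 after siRNA in AKT/NRAS, and at 333, 285 and 254 and 325, 328 and 325 in AKT Cre/NRAS (interaction 0.92, adjusted p = 0.00235, 6 of 7 scalings, response in AKT/NRAS -0.75). *Flt1*, which encodes a VEGF receptor, had 1403, 1304 and 1259.9 after SCR and 982, 1007 and 933 after siRNA in AKT/NRAS and 369, 303 and 239 and 479.8, 495 and 387 in AKT Cre/NRAS, opposite in order without overlap (interaction 1.03, adjusted p = 0.00307, 6 of 7 scalings). *Igf1r* (0.81) and *Efna5* (0.75), which encode the IGF1 receptor and an ephrin, passed in 6 of 7 scalings with responses of 0.01 and -0.10 in AKT/NRAS.

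In 4 developmental pathways no gene passed downwards with this scaling. Of 14 Notch genes, 9 passed (median 0.60), of 20 Wnt genes 10 (median 0.35), of 21 TGF-β, BMP and activin genes 8 (median 0.24) and of 8 Hedgehog genes 5 (median 0.53). After centring within quartiles of span the upward and downward counts were 6 and 1, 5 and 0, 3 and 1, and 3 and 0, and after median centring 7 and 1, 3 and 0, 2 and 2, and 2 and 0. Over all genes 40.6% passed upwards, so the counts of the Wnt and TGF-β lists are near the background. *Jag2*, a Notch ligand gene, was at 178, 158 and 187 in AKT/NRAS SCR and 164, 181 and 142 in AKT/NRAS siRNA, with overlap, and at 60.3, 50.1 and 51.3 in AKT Cre/NRAS SCR and 96.0, 111 and 91.4 in AKT Cre/NRAS siRNA, without (interaction 0.97, adjusted p = 0.00201, 6 of 7 scalings). *Numbl* (0.99), an inhibitor of Notch, and the ligand gene *Dll1* (0.77) passed in 6 of 7, whereas the Notch target gene *Hes1* (0.02) and the ligand gene *Jag1* (0.17) did not pass.

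*Wnt7b*, a Wnt ligand gene, passed in both lines in opposite directions. Its normalised count was 54.1, 52.2 and 48.7 in AKT/NRAS SCR and 37.2, 35.5 and 28.3 in AKT/NRAS siRNA, close to the common limit of 27.1, and 683, 556 and 453 in AKT Cre/NRAS SCR and 867, 779.6 and 720.2 in AKT Cre/NRAS siRNA. The fall in AKT/NRAS was -0.61 (adjusted p = 0.0445), the rise in AKT Cre/NRAS 0.50 (adjusted p = 0.0141) and the interaction 1.11 (standard error 0.21, 6 of 7 scalings). The Wnt target gene *Axin2* (-0.09) did not pass. In the TGF-β group, *Tgfb1* (0.96) and *Smad3* (0.88), the ligand and a transducer, passed in 6 of 7 scalings, and the target genes *Id1* (-0.03) and *Id2* (0.02) did not.

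Matrix and adhesion genes passed upwards in 11 of 26 cases, near the 40.6% of all genes, and downwards for *Spp1* (median 0.34). The counts were 5 and 3 after median centring and 6 and 4 after centring within quartiles of span. *Fn1*, the gene of fibronectin, was at 8223, 7673 and 7384 in AKT/NRAS SCR, 7592, 7312 and 6735 in AKT/NRAS siRNA, 4832, 3543 and 3396 in AKT Cre/NRAS SCR and 7874, 7199 and 6155 in AKT Cre/NRAS siRNA. After siRNA 2 of the 3 AKT Cre/NRAS samples lay within the range of the AKT/NRAS samples, and all AKT Cre/NRAS SCR samples lay below it (interaction 0.97, adjusted p = 0.00301, 6 of 7 scalings). *Lama5* (0.68), a laminin gene, and *Flna* (0.77), which encodes the actin cross-linker filamin A, also passed in 6 of 7.

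The PI3K, AKT and mTOR branch, the one that differs between the lines by design, passed upwards in 15 of 22 cases and never downwards (median 0.47). The shares over all genes were 40.6% and 4.76%. The list's counts were 6 and 1 after median centring and 6 and 0 after centring within quartiles of span. *Tsc2*, which encodes tuberin, the inhibitor of mTOR, was at 545, 529.9 and 529 in AKT/NRAS SCR, 525, 482 and 499 in AKT/NRAS siRNA, 263, 229 and 213 in AKT Cre/NRAS SCR and 421, 429 and 392 in AKT Cre/NRAS siRNA (interaction 0.91, standard error 0.11, adjusted p = 0.000728, 6 of 7 scalings). *Gsk3b* (0.69), the gene of a kinase that AKT inhibits, passed in 6 of 7 scalings, as did *Akt1* (0.64), which is counted among the 15. As given above, the *Akt1* count was far higher in every AKT/NRAS sample than in any AKT Cre/NRAS sample. The *Akt1* probe also reads the AKT construct of the parental line if that construct shares the target sequence, which the labels do not state. In that case its interaction mostly sets the construct in AKT/NRAS against the cells' own gene in AKT Cre/NRAS. The signalling genes of the JAK and STAT list passed upwards in 10 of 18 cases and never downwards (median 0.41), against 40.6% and 4.76% of all genes. The counts were 3 and 0 after median centring and 5 and 0 after centring within quartiles of span. *Cbl* (0.78), *Socs3* (0.70) and *Stat3* (0.66), a receptor-directed ubiquitin ligase, a feedback inhibitor and a transcription factor, passed in 6 of 7.

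**Figure D5:**
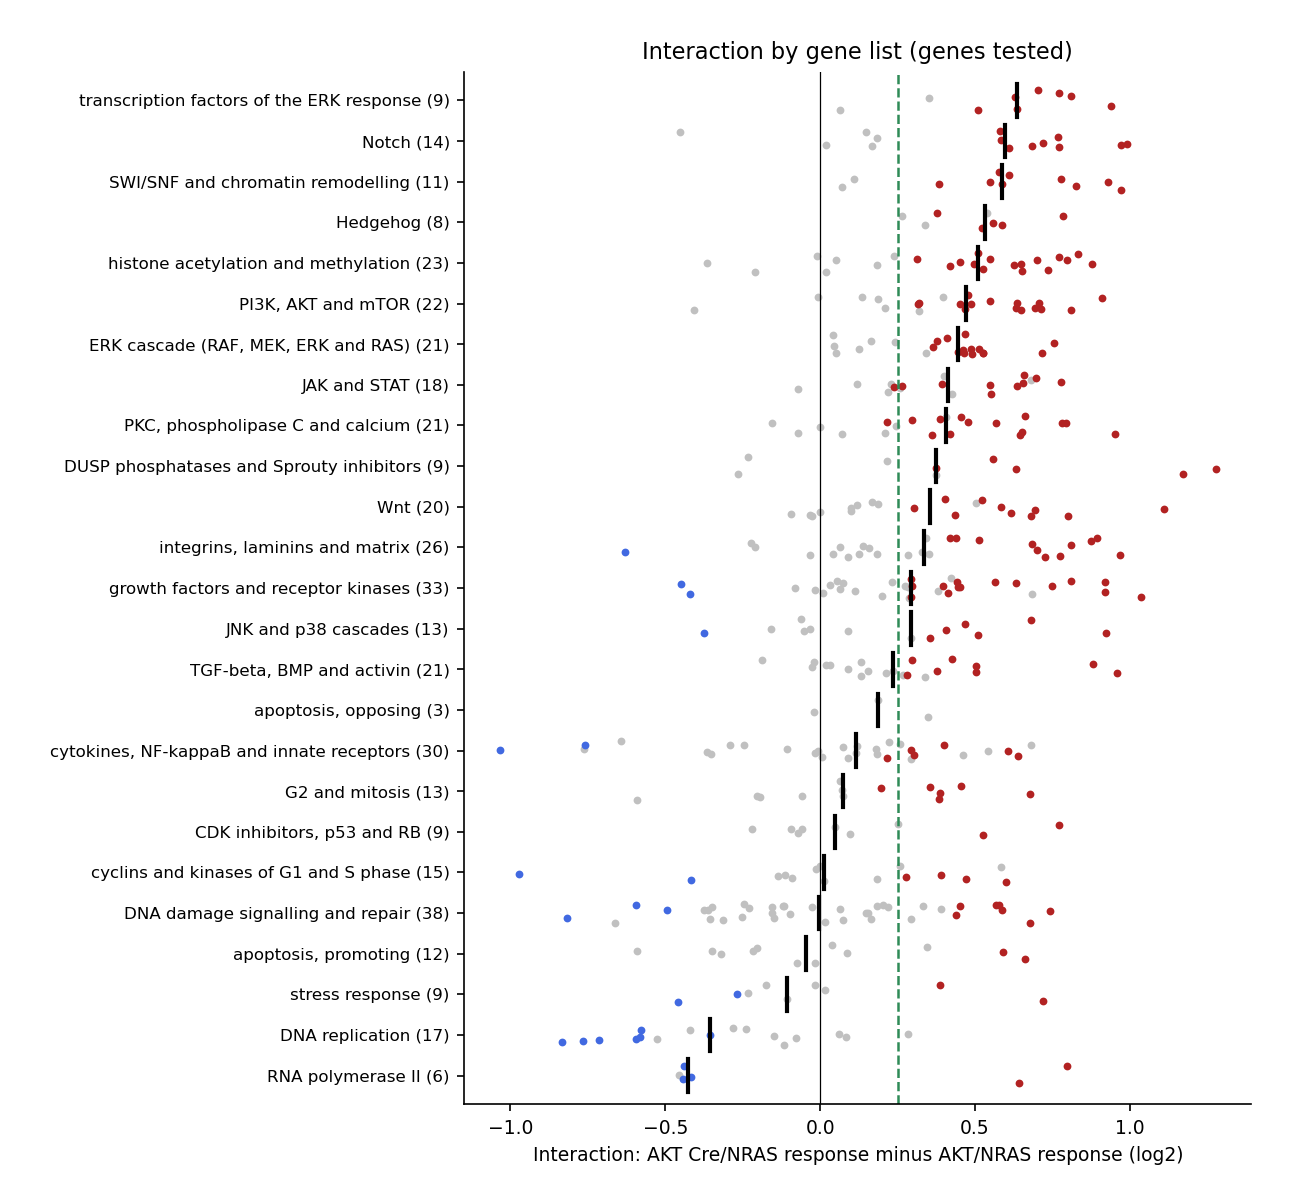
Interaction (log2) of the genes tested in each of 25 lists, ordered by the list median (black bar), with genes past the threshold in red (higher in AKT Cre/NRAS) and blue (lower) and the median of all genes, 0.25, as the dashed line. Transcription factors of the ERK response have the highest median, 0.64, whereas the DNA replication list lies at -0.36 and the 6 RNA polymerase II genes at -0.43.

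Of 12 genes that promote apoptosis, *Capn2* (0.66, 6 of 7 scalings), a calpain gene, and *Casp9* (0.59) passed upwards and none downwards with this scaling (median -0.04), the call of *Casp9* being lost without AKT/NRAS siRNA replicate 1, AKT/NRAS SCR replicate 1 or 2, AKT Cre/NRAS siRNA replicate 2 or 3 or AKT Cre/NRAS SCR replicate 3 (adjusted p up to 0.066). The balance turned to 1 upwards and 6 downwards after median centring and to 1 and 4 after centring within quartiles of span. None of 3 opposing genes passed, with *Bcl2* at 0.35, *Bcl2l1* at 0.19 and *Birc3* at -0.02. *Casp12* was just outside the threshold (-0.32, adjusted p = 0.0508) and *Endog*, the gene of a mitochondrial nuclease, had an interaction of -0.07 (adjusted p = 0.665). Of 9 stress genes, *Hspa2* (0.72) and *Hspb1* (0.39), which encode heat shock proteins, passed upwards, in 5 and 4 of 7 scalings. The list's counts of 2 and 2 became 0 and 3 after median centring and stayed 2 and 2 after centring within quartiles of span. *Gadd45g* (-0.46) and *Ddit4* (-0.27), the gene of an mTOR inhibitor induced by stress, passed downwards, but in 4 and 3 of the 12 fits without 1 sample, those without AKT/NRAS siRNA replicate 1, AKT/NRAS SCR replicate 3 or AKT Cre/NRAS SCR replicate 1 or 2 for *Gadd45g* and without AKT/NRAS siRNA replicate 1, AKT Cre/NRAS siRNA replicate 1 or AKT Cre/NRAS SCR replicate 2 for *Ddit4* (adjusted p up to 0.0769 and 0.089 in the rest).

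Of the 6 RNA polymerase II genes, 2 passed upwards and 3 downwards, against 2 and 4 after median centring and 2 and 3 after centring within quartiles of span. *Polr2a* (0.80), the largest subunit, and *Med12* (0.64), a Mediator subunit, passed upwards in 6 of 7 scalings. *Polr2a* is a reference gene of the panel that geNorm did not keep. It is also the denominator of the *Rpl19* to *Polr2a* ratio by which the AKT Cre/NRAS SCR samples stood apart. Its interaction and that ratio are therefore not separate observations. *Polr2d*, *Polr2j* and *Mnat1* passed downwards (-0.44, -0.44 and -0.42), of which *Polr2d* passed in the fits without AKT/NRAS SCR replicate 2 or AKT Cre/NRAS SCR replicate 1, 2 or 3 alone (adjusted p up to 0.0758 in the others), *Polr2j* was lost without AKT/NRAS siRNA replicate 3, AKT/NRAS SCR replicate 2 or 3 or AKT Cre/NRAS siRNA replicate 1 or 2 (adjusted p up to 0.0809) and *Mnat1* without AKT/NRAS siRNA replicate 3, AKT/NRAS SCR replicate 2 or 3, AKT Cre/NRAS siRNA replicate 1 or AKT Cre/NRAS SCR replicate 2 (adjusted p up to 0.068).

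For 15 of the 238 genes, some samples were at the common limit of 27.1, so that their interactions are bounded by it. In 4 of these every AKT/NRAS sample, and in 5 every AKT Cre/NRAS sample, was at the limit, which makes the response in that line 0 by construction. The interaction of these genes has the size of the response in the other line alone, although they are counted among the 238. *Col5a1*, a collagen gene, was at the limit in all AKT/NRAS samples and at 34.8, 27.1 and 32.3 in AKT Cre/NRAS SCR and 61.4, 61.2 and 54.3 in AKT Cre/NRAS siRNA (interaction 0.89, adjusted p = 0.001, 7 of 7 scalings). *Cacna1g*, a calcium channel gene, was the reverse, at the limit in all AKT Cre/NRAS samples and at 98.5, 84.6 and 82.4 after SCR and 58.2, 57.0 and 53.2 after siRNA in AKT/NRAS (interaction 0.64, 6 of 7 scalings). *Irs1* (0.71, above the limit in 8 samples) and *Tnc* (0.70, in 7) passed in 4 of 7 scalings, and *Tcf7l1* (0.80, in 7) in 3 of 7 and in the fits without AKT/NRAS siRNA replicate 1 or AKT Cre/NRAS SCR replicate 1 alone (adjusted p up to 0.107 in the others). *Ddb2*, a sensor of ultraviolet damage, was the only one with a negative value (-0.50, above the limit in 8 samples), and passed in the fits without AKT/NRAS siRNA replicate 3, AKT Cre/NRAS siRNA replicate 1 or AKT Cre/NRAS SCR replicate 1 or 3 alone (adjusted p up to 0.0858 in the others).

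The cell type markers were checked in both lines. Of 4 B, T and myeloid cell markers on the panel, none exceeded the common limit in any sample. The hepatocyte marker *Cebpa*, a transcription factor gene, was at 754, 768 and 717 in AKT/NRAS SCR, 671, 743 and 779 in AKT/NRAS siRNA, 446, 428 and 391 in AKT Cre/NRAS SCR and 549, 565 and 553 in AKT Cre/NRAS siRNA. The growth hormone receptor gene *Ghr* was above the limit in all 12 samples. The progenitor and biliary markers *Prom1*, *Sox9* and *Spp1* summed to 15321 to 15943, 17246 to 19906, 120377 to 161827 and 101972 to 115872 in AKT/NRAS SCR, AKT/NRAS siRNA, AKT Cre/NRAS SCR and AKT Cre/NRAS siRNA, nearly all of it *Spp1*. *Flt1* was the only endothelial marker above the limit, and the fibroblast markers *Col1a1* and *Pdgfra* summed to at most 104 in AKT/NRAS and 513 in AKT Cre/NRAS. *Prom1*, the gene of CD133, was at the limit in every AKT/NRAS sample and had 61.2, 60.0 and 37.9 in AKT Cre/NRAS SCR and 72.5, 69.1 and 59.5 in AKT Cre/NRAS siRNA, and its interaction did not pass (0.36, adjusted p = 0.178).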

How the data were processed

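RNA of the 12 samples was hybridised to the NanoString® Mouse PanCancer Pathways panel. The deposited values are signal scaled by the authors to the positive controls with nSolver, with values under 20 set to 20. The reference gene step that the methods describe was not found in them, and 0 columns of sample values were left unused. The members and gene lists were chosen with earlier results of these data known. Each sample was scaled to the 15 of 20 reference genes that geNorm kept, and values below 27.1, the highest limit of any sample after scaling, were set to it. Log2(value + 1) was fitted over all 12 samples in limma 3.58.1 (R 4.3.3) with a mean for each group and an intensity trend, and p values were adjusted by Benjamini-Hochberg over 525 genes. Named genes were *Dusp4*, the 12 largest positive and 12 largest negative interactions among genes past the threshold that were above the limit in all samples and not kept as reference genes, up to 5 in each direction at the limit in some samples, up to 4 of each list with the smallest p, the genes the study names, *Rpl19* and *Polr2a*, and kept reference genes past the threshold (*Sap130* 0.59, *Sdha* 0.54, *Abcf1* 0.52, *Oaz1* -0.49, *Nubp1* -0.40). All other named genes were chosen after their values were seen. Figures, counts and correlations were made in Python 3.11.15. Between 252 and 293 genes lay at the deposited limit in a sample, and totals of recovered counts ran from 641790 to 1081646. The fit was checked on simulated data in which a gene had the same spread in all groups and whole samples were not shifted. That check does not cover the wider spread of AKT Cre/NRAS SCR or the choice of scaling. Alternatives covered scaling, limit, pseudocount (10), filter, variance model, adjustment, replicate block and single samples left out. Centring within quartiles of genomic span was added after the data had been seen. Promoters of 300 bases came from RefSeq (GRCm38.p6), in which 407 of the 551 members matched by symbol. A gene with several starts has several windows, and the 387 matched genes among those tested had 514. A few genes of the panel are not reported here.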

Additional observations from a re-analysis of the deposited data

Results flagged for a closer look

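The responses of the 2 lines differed by the interaction test for 238 genes, and *Dusp4* and the largest interactions reported here in each direction among genes above the limit in all samples are given here because the test of the difference itself passed for each. The positive interactions (log2) were 1.28 for *Dusp4*, 1.17 for *Dusp5*, 1.11 for *Wnt7b*, 1.03 for *Flt1*, 0.99 for *Creb3l1* and *Numbl*, 0.98 for *Cic*, 0.97 for *Arid1a*, *Jag2* and *Fn1*, 0.96 for *Tgfb1*, 0.95 for *Prkca* and 0.94 for *Fosl1*. The negative ones were -1.03 for *Cxcl5*, -0.97 for *Ccne2*, -0.83 for *Rfc3*, -0.82 for *Ube2t*, -0.77 for *Rpa3*, -0.76 for *Cxcl1*, -0.71 for *Pole2*, -0.63 for *Spp1*, -0.59 for *Hist2h3b* and -0.58 for *Rfc4* and *Hist1h3b*. None of the negative ones passed with the Benjamini-Yekutieli adjustment. *Creb3l1*, which encodes a transcription factor of the endoplasmic reticulum membrane, is the only one of the genes listed here not described above. Its normalised count was 92.7, 93.9 and 89.3 in AKT/NRAS SCR, 83.8, 61.6 and 73.8 in AKT/NRAS siRNA, 146, 115 and 78.0 in AKT Cre/NRAS SCR and 162, 183 and 174 in AKT Cre/NRAS siRNA.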

How the results depend on the processing

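The interaction count of 238 genes lay between 169 and 306 under the other settings, except for 10 with the values as deposited and 101 with the Benjamini-Yekutieli adjustment. These 101 were all positive, so that none of the 25 negative interactions passed with that adjustment. The count of 289 in AKT Cre/NRAS lay between 213 and 403, except for 7 as deposited and 171 with the Benjamini-Yekutieli adjustment. The count of 19 in AKT/NRAS was the least stable. It was 3 as deposited, 31 after median centring, 7 with the 5 reference genes ranked first, 34 after quantile normalisation, 91 with weights per group, 7 with the Benjamini-Yekutieli adjustment, 39 after centring within quartiles of span and 86 in a fit of the AKT/NRAS samples alone. Leaving out 1 sample at a time gave 176 (without AKT/NRAS SCR replicate 1) to 307 (without AKT Cre/NRAS SCR replicate 1) for the interaction, 249 to 327 for AKT Cre/NRAS, 7 (without AKT/NRAS SCR replicate 3) to 54 (without AKT Cre/NRAS SCR replicate 1 or 3) for AKT/NRAS and 1.13 to 1.38 for the interaction of *Dusp4*. In AKT/NRAS the count was 8 to 12 without AKT/NRAS siRNA replicate 2, AKT/NRAS SCR replicate 1 or 2 or AKT Cre/NRAS siRNA replicate 2. All 12 such fits kept 163 of the 238 genes, 156 upwards and 7 downwards. The interaction of *Dusp4* was 0.85 as deposited and did not pass. Same-numbered samples did not deviate together in AKT/NRAS (r -0.08 to -0.02, 0 of 6 samples closest to their own number) but did in AKT Cre/NRAS (0.12 to 0.23, 6 of 6). With the replicate block 240, 291 and 37 genes passed in the interaction, AKT Cre/NRAS and AKT/NRAS, and with the replicate block within line 244, 294 and 34.

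As deposited, the interaction turned to -0.0673 for *Rac1*, -0.0681 for *Mad2l2*, -0.0486 for *Dusp6*, -0.0359 for *Hspb1*, -0.0327 for *Ccnd2*, -0.0349 for *Smc3*, -0.0284 for *Il15* and -0.0147 for *Map2k4*. With 5 reference genes it turned to 0.0186 for *Gadd45g*, 0.217 for *Ddit4*, 0.0667 for *Mnat1*, 0.042 for *Polr2j*, 0.45 for *Map2k6* and 0.0801 for *Nubp1*, and after centring within quartiles of span to -0.0263 for *Map2k4* and -0.0321 for *Il1rap*. The cause was not tested. Where samples lay at the lower limit, the signal sets no more than a bound.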
